A study of Homo sapiens with 6 samples.

Results

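The clustered core histone genes were followed in THP-1 cells with and without knockdown of the transcription factor NFIC. Members were the protein-coding genes whose symbols begin with H2AC, H2BC, H3C or H4C followed by a number, and 57 of the 33981 genes in the table met this rule, with 15 H2A, 16 H2B, 13 H3 and 13 H4 genes. THP-1 is a monocytic line established from a human acute myeloid leukemia. Both groups were THP-1 cells that received a lentiviral vector on retronectin, were sorted for GFP on day 4 after infection and were sequenced as bulk mRNA with 3 samples each. The vector carried a scrambled shRNA in the control group and an shRNA against NFIC in the other, so the comparison rests on 1 cell line and 1 NFIC shRNA. This follows the labels and the paper's account of its results, which also names a scrambled control. The methods instead give the control of the bulk RNA as a vector with GFP alone, and the sources do not settle this conflict. The question was which histone genes differed in mRNA level once NFIC was reduced.

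Histones H2A, H2B, H3 and H4 form the protein core around which nuclear DNA is wound, with H3 and H4 making a tetramer and H2A and H2B joining as dimers. Their clustered genes are known to be transcribed mainly while DNA is copied, at a nuclear body organised by NPAT. Most of their mRNAs have no intron and no poly(A) tail, and end in a stem-loop that SLBP binds and that sets their processing and decay. Some members are known to make additional polyadenylated mRNAs that read through the stem-loop, above all in differentiated or resting cells. The labels and methods call the sequenced RNA mRNA, and a step that selected poly(A) tails is not described in the sources used here.

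All 57 members had a coding sequence in a single exon of the GENCODE release 44 annotation of GRCh38. A search of the 400 bases after the last coding base found the histone stem-loop, 16 letters long, in 55 members, whereas 13 of 3055 other protein-coding genes of chromosomes 1 and 6 had it (0.426%). These other genes included histone genes outside the naming rule, such as the linker histone genes of chromosome 6, and how many of the 13 were histone genes was not counted. H3C6 and H2BC10 had no match in this window. The stem-loops are shown because this element is what the 4 classes share outside their coding sequences, and capitals mark the paired arms and lower case the loop.
Form of 32 members in the H2A, H2B and H3 classes: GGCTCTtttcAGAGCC
Form of 9 members, all H4: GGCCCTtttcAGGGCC
Form of 7 members, among them H2BC12, H2BC4, H2BC5 and H2BC11: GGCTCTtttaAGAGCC
Form of H4C9, H4C12, H4C14 and H4C15: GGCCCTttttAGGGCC
H2AC11: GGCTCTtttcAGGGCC
H2AC20: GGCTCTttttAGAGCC
H2AC15: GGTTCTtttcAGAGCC
The stem-loop began between 22 and 67 bases after the stop codon. For 43 members the annotated gene ended within 18 bases past it, and 9 of these 43 had enough reads to be tested. The methods name an older Ensembl gene build for the counting, and 5 of these 9 (H2BC7, H2BC8, H2BC9, H2AC11 and H4C9) had a listed length more than 300 bases over their coding bases, so their counts may include bases beyond the ends given here. For the other 12 the annotated gene ended at least 430 bases further along the genome, up to 37155 bases for H2BC4, and 11 of these 12 had enough reads. These distances include introns and are not lengths of mRNA, since all exons of H2BC4 together held 2881 bases. The lengths listed in the deposited table showed a like split, since 17 of the 23 members whose listed length exceeded their coding bases by more than 300 were tested, against 4 of the other 34. These shares describe which members yielded counts, and the part that RNA selection or counting played in them was not tested.

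The members lay in 4 runs, taken as neighbours less than 500000 bases apart. On chromosome 1 there were 11 members between 149782689 and 149887965. On chromosome 6 there were 27 between 26020451 and 26285638, 5 between 27125897 and 27147562, and 14 between 27807479 and 27893891 (GRCh38). In 10 places an H2B and an H2A gene were transcribed away from each other with 169 to 250 bases between their start sites. The whole stretch between the starts is shown for 3 such pairs, because it holds the promoters of both genes. H2BC11 with H2AC11 had large increases in both genes, H2BC8 with H2AC8 had an increase in H2BC8 and, in a fit without a filter on low counts, in the sparsely read H2AC8, and H2BC21 with H2AC20 had opposite signs, with a call for H2AC20 that was lost under several of the alternatives tried. Each is given from the start of the H2A gene to the start of the H2B gene, on the minus strand of GRCh38 as in RefSeq, with capitals for matches on either strand of 3 motifs, namely CCAAT (the box that the NF-Y factor binds), the TATAAA of the TATA box, and the octamer of H2B promoters, ATTTGCAT.
H2AC20 to H2BC21, chr1:149886683-149886917: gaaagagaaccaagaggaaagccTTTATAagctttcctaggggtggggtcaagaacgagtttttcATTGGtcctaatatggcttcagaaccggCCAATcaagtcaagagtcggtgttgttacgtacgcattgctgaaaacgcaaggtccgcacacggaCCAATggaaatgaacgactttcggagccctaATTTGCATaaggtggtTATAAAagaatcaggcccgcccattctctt
H2AC8 to H2BC8, chr6:26216689-26216920: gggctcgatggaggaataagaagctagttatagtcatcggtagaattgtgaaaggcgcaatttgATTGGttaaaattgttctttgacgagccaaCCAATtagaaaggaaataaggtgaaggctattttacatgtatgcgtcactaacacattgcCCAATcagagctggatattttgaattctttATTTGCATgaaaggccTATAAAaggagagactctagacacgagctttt
H2AC11 to H2BC11, chr6:27132796-27133042: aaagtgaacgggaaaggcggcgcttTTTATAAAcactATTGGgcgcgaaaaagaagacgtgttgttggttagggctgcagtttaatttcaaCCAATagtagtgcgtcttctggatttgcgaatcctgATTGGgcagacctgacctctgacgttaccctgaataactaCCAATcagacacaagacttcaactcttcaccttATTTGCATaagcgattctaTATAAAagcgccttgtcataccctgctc
The first stretch held 3 CCAAT and 2 TATAAA matches, the second 3 and 1, and the third 4 and 3, with overlap between TATAAA matches on opposite strands, and each held 1 octamer. RefSeq promoters, from 250 bases before to 50 after the start in GRCh38.p14, matched 52 members, and H2AC12, H3C11, H3C12, H4C1 and H4C3 are named only. On either strand CCAAT stood in the promoters of all 14 H2A, 16 H2B and 11 H3 members listed and in 2 of 11 H4 members, against 34.6% of all 35116 promoters. TATAAA stood in 36 of the 52 members against 11.5% of all promoters. ATTTGCAT was found in 10 of 14 H2A and 13 of 16 H2B members and in 0 of 11 H3 and 0 of 11 H4 members, against 1.77% of all promoters. For NFIC itself, the palindrome of the NFI family, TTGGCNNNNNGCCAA, had no match in the 52 promoters and stood in 0.028% of all promoters. Its shorter arm TTGGC, which can overlap the palindrome and a reversed CCAAT, stood in 37 of the 52 against 45.6%. A match is a run of letters and not a measured binding site, and no match says only that these letters were absent from the window.

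Near-identical coding sequence limits what counts can say about single members. The H4 members encoded 2 distinct proteins, with 12 of 13 encoding the same one, and the H3 members encoded 2, with 10 of 13 encoding the same one, whereas there were 9 distinct H2A and 12 distinct H2B proteins. At the DNA level 41 of the 57 members nevertheless shared none of their 100-base coding stretches with another member. The coding sequences were identical within H4C14 and H4C15, H3C14 and H3C15, H2AC18 and H2AC19, and H4C11 and H4C12, so their counts are uncertain. Exons of H2BC18 overlap FCGR1A, those of H3C4 and H2AC7 overlap AL031777.2, exons of H2AC6, H2BC4, H2BC6 and H4C8 overlap other annotated genes, and H3C12 and H2AC17 overlap each other. How the authors' counting treated strand and reads that fit several places is not given in the sources used here.

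Total counts were between 20369543 and 24809720 per sample, so that the detection limit of 3 counts was 0.121 to 0.147 CPM (counts scaled to the depth of each library), an allowance for counting error only. After edgeR's filter on low counts 19182 genes remained, and 5676 of them passed an adjusted p of 0.05 as higher and 5810 as lower under NFIC shRNA (edgeR's quasi-likelihood test, Benjamini-Hochberg adjustment over all genes tested), and the median log2 fold change (log2FC) was -0.01. NFIC had 911, 1019 and 904 raw counts under scrambled shRNA and 399, 518 and 493 under NFIC shRNA, from 41.9 ± 0.445 to 21.02 ± 1.52 CPM (mean ± SD, n = 3 per group), with a log2FC of -0.99 ± 0.072 (SE, edgeR adjusted p = 3.73e-09). A list of 12 myeloid markers held monocytic genes and also the granule genes MPO, ELANE and PRTN3. All 12 were detected, with a summed level of 4485 to 5038 CPM with scrambled shRNA and 3439 to 3623 CPM with NFIC shRNA. Of these markers 3 were higher and 8 lower, beside 29.6% higher and 30.3% lower over all genes tested. The fall of the sum lay mostly in ELANE, with means of 2130 and 1488 CPM, and PRTN3, with 639 and 187 CPM, so it does not measure the monocytic genes alone. The 3 higher markers were CD14, ITGAM and LYZ, the last with means of 572 and 940 CPM. Markers of T cells, B cells, erythroid cells and epithelial cells summed to at most 2.20, 25.4, 10.8 and 6.14 CPM with scrambled shRNA and 0.776, 18.1, 10.7 and 2.03 CPM with NFIC shRNA. The part of these differences in the histone results was not tested.

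The core histone genes together had more reads in every NFIC shRNA sample than in any scrambled sample. The 57 members together had 1519, 1510 and 1550 raw counts under scrambled shRNA and 3006, 3077 and 3301 under NFIC shRNA. Scaled to depth, this was 68.0 ± 5.85 CPM and 140.5 ± 6.97 CPM (mean ± SD, n = 3 per group), a ratio of 2.07. The lowest NFIC shRNA sample lay at 132.6 CPM and the highest scrambled sample at 72.4 CPM, and no test was made of this sum. In bulk RNA a larger share of cells that hold an mRNA and more of that mRNA in each cell cannot be told apart.

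The 57 members differed widely in the reads counted on them, and the part of RNA selection and counting in this was not tested. Only 21 passed the filter, and these carried 96.2% of the member counts with scrambled shRNA. H2BC12, H2BC18, H4C9 and H2AC6 alone held 73.7% of them with scrambled shRNA and 64.0% with NFIC shRNA. Per length, H2BC12 had the highest level in the deposited FPKM values, with a mean of 45.6 with scrambled shRNA and 98.99 with NFIC shRNA, followed with scrambled shRNA by H4C9 at 7.82, H2BC18 at 4.92 and H2AC6 at 3.79 FPKM. These FPKM values depend on the listed length, which was 381 bases for H2BC12, its coding sequence with the stop codon, and 3196 bases for H2BC18.

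With NFIC shRNA, 17 of the 21 tested members were higher, 1 was lower and 3 did not pass the test. Over all genes tested, 29.6% were higher and 30.3% lower. Of the 17, 16 had a log2FC above 1, and 3.36% of all genes tested were called higher with a log2FC above 1. All 17 had groups that did not overlap in CPM, as did 32.2% of all genes tested in the same direction. These counts cannot be read as all members, because 5 of the 21 (H3C4, H2AC7, H2BC7, H2BC11 and H3C10) passed the filter only through their NFIC shRNA samples and had to differ, and 3 more (H4C14, H2BC4 and H2BC8) reached its level in 1 scrambled sample. Of the 13 members at the filter level in all 3 scrambled samples, 9 were higher, 1 was lower and 3 did not pass the test. The log2FC of these 9 ran from 0.66 for H3C6 to 2.57 for H2BC21 and was above 1 in all but H3C6.

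**Figure D1:**
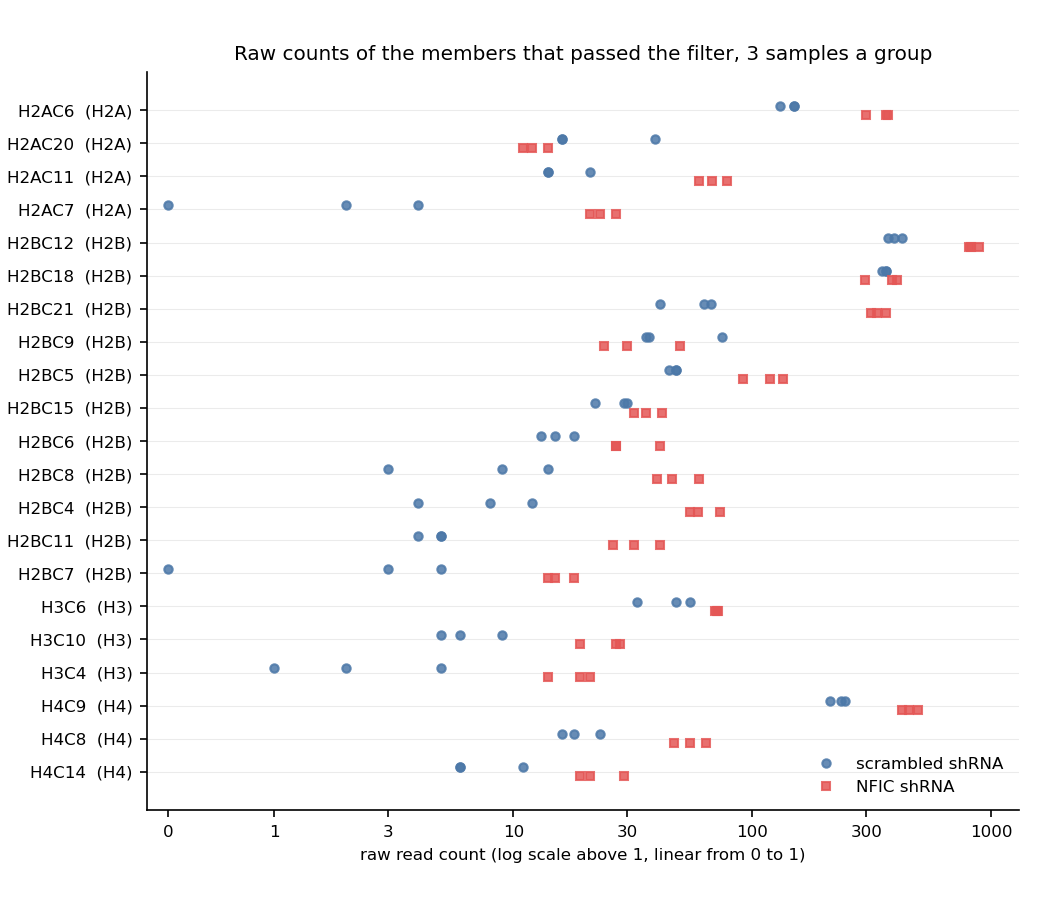
Raw read count (horizontal axis, logarithmic above 1) of each of the 21 tested members in every sample, grouped by class, with circles for the 3 scrambled shRNA samples and squares for the 3 NFIC shRNA samples. The squares lie to the right of all circles in the 17 members called higher and, narrowly, in H2BC15, whereas the groups overlap in H2BC18 and H2BC9 and the squares lie to the left in H2AC20.

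Among H2A genes, which encode a partner in the H2A-H2B dimer, H2AC6 was the most abundant. It lies on chromosome 6 from 26124145 to 26139116 and had 149, 130 and 150 counts under scrambled shRNA and 300, 370 and 364 under NFIC shRNA. Every NFIC shRNA sample had more counts than any scrambled sample, and the level rose from 6.39 ± 0.963 to 15.4 ± 0.76 CPM (mean ± SD, n = 3 per group), a log2FC of 1.28 ± 0.12 (SE, edgeR adjusted p = 5.37e-08). H2AC11 had 14, 14 and 21 counts against 68, 60 and 78, with a log2FC of 2.08 ± 0.25 (SE, edgeR adjusted p = 1.44e-06). H2AC7 was nearly silent with scrambled shRNA, with 0, 4 and 2 counts, and had 23, 21 and 27 with NFIC shRNA. Its log2FC of 3.5 was the largest of the tested members and also the least precise but for H2BC7 (standard error 0.52, edgeR adjusted p = 1.76e-05). It was 4.35 without scrambled replicate 2 and 2.97 without scrambled replicate 1, where H2BC4 was as large. AL031777.2, whose exons overlap H2AC7, had 1, 9 and 7 counts against 63, 52 and 63, so reads of this stretch may be divided between both names.

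H2AC20 was the only tested member called lower. It had 16, 39 and 16 counts under scrambled shRNA and 14, 11 and 12 under NFIC shRNA, and the groups did not overlap, although scrambled replicates 1 and 3 stood only 2 counts above the highest NFIC shRNA sample. The log2FC was -0.90 ± 0.37 (SE, edgeR adjusted p = 0.0441). Without scrambled replicate 2 the log2FC was -0.43 (edgeR adjusted p = 0.368), so its size depended on that sample. The call was also lost, with the log2FC between -1.05 and -0.79, with DESeq2 (adjusted p = 0.105), with a replicate block (edgeR adjusted p = 0.0697) and without any 1 of the NFIC shRNA replicates (adjusted p between 0.0539 and 0.119 from edgeR).

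The H2B genes, which encode the other partner of the dimer, carried most of the reads, with 64.0% of the member counts with scrambled shRNA and 61.4% with NFIC shRNA. H2BC12, on chromosome 6 from 27146361 to 27146855, had 391, 369 and 422 counts under scrambled shRNA and 887, 803 and 824 under NFIC shRNA. The groups were well apart, and the level rose from 17.6 ± 2.40 to 37.8 ± 4.58 CPM (mean ± SD, n = 3 per group), a log2FC of 1.10 ± 0.1 (SE, edgeR adjusted p = 1.43e-07). H2BC21, on chromosome 1 from 149884459 to 149886682, had 67, 41 and 63 counts against 313, 361 and 334. Its lowest NFIC shRNA sample had more than 4 times the counts of its highest scrambled sample, and with a log2FC of 2.57 (standard error 0.16) it had the smallest adjusted p of the members (6.33e-10 from edgeR). It made up 3.73% of all member counts with scrambled shRNA and 10.7% with NFIC shRNA.

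H2BC18, the second most abundant member with scrambled shRNA, did not pass the test. It had 362, 364 and 348 counts under scrambled shRNA and 296, 385 and 403 under NFIC shRNA, so the groups overlapped. The log2FC was 0.02 with a standard error of 0.095 (edgeR adjusted p = 0.848), and its share of the member counts was 23.5% in the scrambled samples and 11.6% in the NFIC shRNA samples. FCGR1A, whose exons overlap those of H2BC18, had 1375, 1595 and 1428 counts against 1342, 1474 and 1584 and a log2FC of 0.02 (edgeR adjusted p = 0.82). Whether reads of FCGR1A were counted on H2BC18 was not tested.

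Other H2B genes with moderate counts rose to different extents. H2BC5 had 48, 45 and 48 counts under scrambled shRNA and 91, 119 and 135 under NFIC shRNA, with a log2FC of 1.30 ± 0.17 (SE, edgeR adjusted p = 5.11e-06). H2BC6 had 18, 15 and 13 counts against 27, 41 and 27, with a log2FC of 1.05 ± 0.29 (SE, edgeR adjusted p = 0.00516). In both genes all NFIC shRNA samples lay above all scrambled samples. H2BC15 had 29, 22 and 30 counts against 36, 32 and 42, with a log2FC of 0.45 ± 0.26 (SE, edgeR adjusted p = 0.138). H2BC9 had 36, 75 and 37 counts against 30, 24 and 50, with a log2FC of -0.48 ± 0.29 (SE, edgeR adjusted p = 0.168). Neither passed the test, the groups of H2BC15 stood 2 raw counts apart and overlapped in CPM, and in H2BC9, as in H2AC20, scrambled replicate 2 had the highest count of all samples. Without NFIC shRNA replicate 3, H2BC9 had a log2FC of -0.81 (edgeR adjusted p = 0.0275), so its position depended on that sample.

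The remaining tested H2B genes had few reads in the scrambled samples, and 2 of them (H2BC11 and H2BC7) are among those that passed the filter only through the NFIC shRNA samples. H2BC4 had 8, 4 and 12 counts under scrambled shRNA and 59, 55 and 73 under NFIC shRNA, with a log2FC of 2.95 ± 0.32 (SE, edgeR adjusted p = 4.07e-07). H2BC11 had 4, 5 and 5 counts against 26, 32 and 41, with a log2FC of 2.80 ± 0.36 (SE, edgeR adjusted p = 3.39e-06). In both, the lowest NFIC shRNA sample held several times the counts of the highest scrambled sample. H2BC8 had 9, 14 and 3 counts against 60, 40 and 46, with a log2FC of 2.50 ± 0.36 (SE, edgeR adjusted p = 1.36e-05). H2BC7 had 3, 5 and 0 counts against 15, 18 and 14, with a log2FC of 2.52 ± 0.55 (SE, edgeR adjusted p = 0.000788). The groups did not overlap in either gene, and the spread between scrambled samples was wide for such low counts.

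Of the H3 genes 3 were tested and called higher, but H3C10 and H3C4 were tested only because their NFIC shRNA samples reached the filter level, so the count says nothing about the class. H3, with H4, forms the tetramer at the centre of the nucleosome. H3C6, the H3 member with the most reads and without a stem-loop match, had 55, 33 and 48 counts under scrambled shRNA and 70, 71 and 72 under NFIC shRNA. The NFIC shRNA samples were nearly equal and lay above all scrambled samples, with a log2FC of 0.66 ± 0.22 (SE, edgeR adjusted p = 0.0143). Without scrambled replicate 2 the log2FC was 0.41 and the call was lost (edgeR adjusted p = 0.0859). H3C10 had 5, 6 and 9 counts against 19, 28 and 27, with a log2FC of 1.88 ± 0.36 (SE, edgeR adjusted p = 0.000259). H3C4 had 1, 5 and 2 counts against 21, 19 and 14, with a log2FC of 2.72 ± 0.5 (SE, edgeR adjusted p = 0.000167), and its exons overlap AL031777.2, which rose as given above for H2AC7.

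The 3 tested H4 genes were called higher, beside 29.6% of all genes tested, and H4C14 had 1 scrambled sample at the filter level. H4C9, on chromosome 6 from 27139282 to 27139678, had 211, 236 and 244 counts under scrambled shRNA and 452, 424 and 493 under NFIC shRNA. It doubled, from 10.2 ± 0.999 to 20.5 ± 1.97 CPM (mean ± SD, n = 3 per group), with a log2FC of 1.00 ± 0.1 (SE, edgeR adjusted p = 2.01e-07) and groups far apart. H4C8 had 23, 18 and 16 counts against 55, 47 and 64, with a log2FC of 1.55 ± 0.25 (SE, edgeR adjusted p = 3.81e-05). H4C14 had 6, 6 and 11 counts against 29, 21 and 19, with a log2FC of 1.59 ± 0.39 (SE, edgeR adjusted p = 0.00195). The samples of the groups did not overlap in either gene, and the coding sequence of H4C14 is identical to that of H4C15, which had at most 3 counts in any sample.

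**Figure D2:**
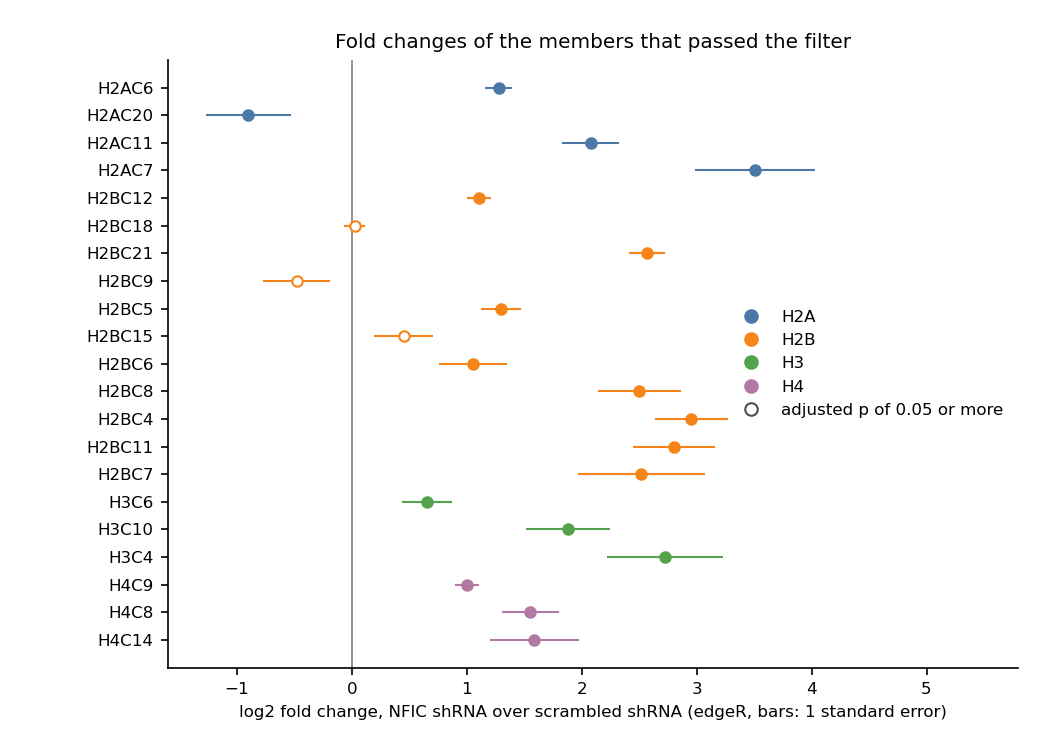
Log2 fold change of NFIC shRNA over scrambled shRNA from edgeR (horizontal axis) for the 21 tested members, ordered by class and by level with scrambled shRNA from top to bottom within a class, with bars of 1 standard error. Filled points passed an adjusted p of 0.05 and open points did not. Estimates run from -0.90 for H2AC20 to 3.5 for H2AC7. H2AC7, H2BC7, H2BC11, H3C4 and H3C10 passed the filter only through their NFIC shRNA samples and had to lie high, so size cannot be read against abundance.

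The other 36 members did not pass the filter, with 0 to 24 counts in a sample, namely 11 H2A, 5 H2B, 10 H3 and 10 H4 genes. In 28 of them no sample had more than 9 counts, and none was at 0 in every sample. The remaining 8 had 10 or more counts in some sample. H2AC8 had 2, 0 and 2 counts under scrambled shRNA and 12, 9 and 10 under NFIC shRNA, H2AC13 had 2, 1 and 1 against 12, 8 and 10, and H3C13 had 1, 3 and 2 against 13, 9 and 10. In these 3 genes the groups did not overlap. H3C12 had 4, 2 and 3 counts against 12, 6 and 11, H2AC17 had 3, 2 and 3 against 10, 5 and 10, and H4C12 had 3, 2 and 3 against 7, 7 and 11. In these too the groups did not overlap, so that 6 of the 8 lay higher without overlap, as did 11.1% of all genes below the filter with 10 or more counts in a sample, and 0 of the 8 lay lower without overlap, against 19.7% of those genes. All 8 reached 10 counts only in NFIC shRNA samples and so were picked through the group where they are high. Their direction was thus largely set by the choice, and these shares say nothing about the members. H3C8 had 5, 7 and 3 counts against 12, 6 and 24, and H4C5 had 5, 2 and 5 against 4, 8 and 11, both with overlapping groups. H4C3, named after its values were seen, had 9, 7 and 6 counts against 1, 1 and 5 and lay lower without overlap (log2FC -1.59, edgeR adjusted p = 0.0837 without a filter). In a fit without a filter, edgeR called 5 of the 36 higher (H3C13, H2AC8, H3C8, H2AC13 and H3C12, with log2FC values from 1.48 to 2.86 and adjusted p from 0.000617 to 0.0301) and 0 lower (1 of the 36 was lower at an unadjusted p under 0.05). In that fit 16.9% of all 33981 genes were called higher, a share over genes of all levels. It held 5751 genes, beside 5676 called higher with the filter, and the share over genes below the filter alone was not computed. For the rest of the 36, a difference was not detectable at this depth.

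Summed by class, members below the filter included, all 4 classes were higher with NFIC shRNA and the groups did not overlap in any. H2A had 8.81 ± 0.613 and 22.04 ± 0.646 CPM (mean ± SD, n = 3 per group), a ratio of 2.50, and H2B had 43.5 ± 3.70 and 86.2 ± 3.40 CPM, a ratio of 1.98. H3 had 3.27 ± 0.65 and 7.0 ± 0.657 CPM, a ratio of 2.14, and H4 had 12.4 ± 1.11 and 25.3 ± 2.55 CPM, a ratio of 2.04. No test was made of these sums. Left without H3C6, the H3 ratio was 3.10, and left without H2AC6, the H2A ratio was 2.74. Over the 36 members below the filter alone the ratio was 2.05, with 64, 60 and 50 counts against 115, 95 and 142. It differed by class, with 3.30 for H2A and 2.33 for H3, where the groups did not overlap, and 1.22 for H2B and 1.25 for H4, where they overlapped.

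By run, the sums were higher with NFIC shRNA in all 4 places, again without a test. The 27 members of the first run on chromosome 6 had 16.6 ± 1.24 CPM with scrambled shRNA and 38.97 ± 2.29 with NFIC shRNA (mean ± SD, n = 3 per group), a ratio of 2.35. Of its 11 tested members 10 were called higher, beside 29.6% of all genes tested. Of these 10, 3 (H3C4, H2AC7 and H2BC7) passed the filter only through their NFIC shRNA samples, and H2BC4 and H2BC8 reached its level in 1 scrambled sample. The 5 of the next run, which holds H2BC12 and H4C9, had 28.9 ± 3.45 and 63.0 ± 6.49 CPM, a ratio of 2.18, with 4 of 4 tested members called higher, H2BC11 among them having passed the filter only through its NFIC shRNA samples. In the last run of 14, with 2 tested, H3C10, which passed the filter in the same way, was higher and H2BC15 did not pass the test, and the sums were 2.41 ± 0.368 and 4.97 ± 0.47 CPM, a ratio of 2.06. The chromosome 1 run had the smallest ratio, 1.67, with 20.1 ± 1.38 and 33.6 ± 0.85 CPM. That value rested on H2BC18, without which the chromosome 1 ratio was 4.21. Most of what then remained was H2BC21, with means of 2.57 and 15.1 CPM, so 4.21 was largely the change of H2BC21 and not of the whole run.

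**Figure D3:**
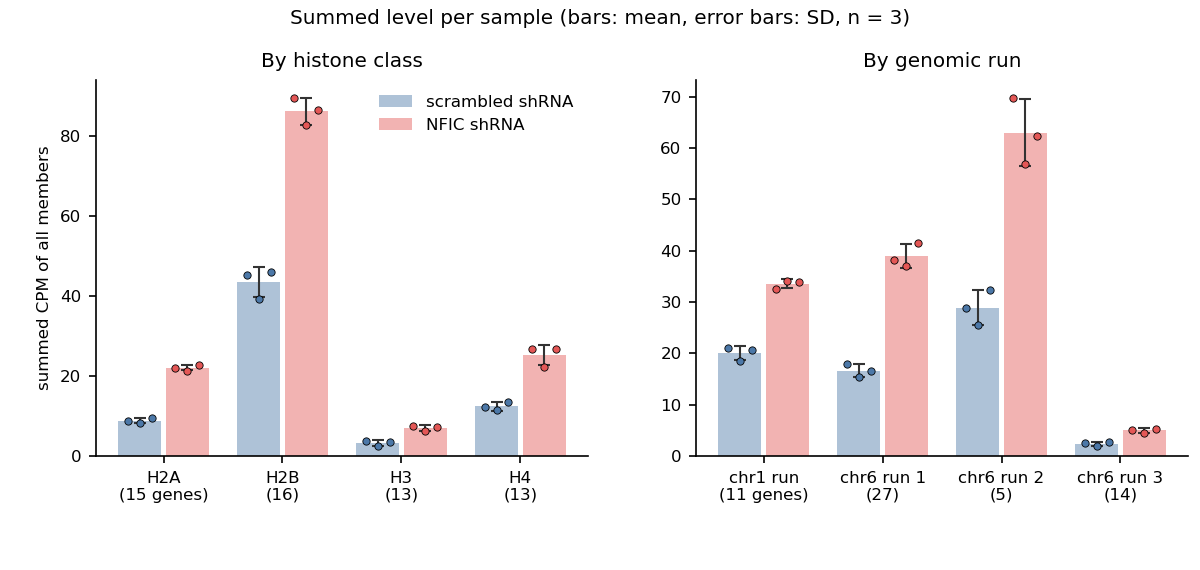
Summed CPM of all members (vertical axis) by histone class on the left and by genomic run on the right, with bars for the mean, error bars for the SD (n = 3) and a point for each sample. Every point of an NFIC shRNA bar lies above every point of the scrambled shRNA bar beside it, with H2B the tallest class and the second run of chromosome 6 the tallest run.

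Of the 10 divergent H2B-H2A pairs, 4 had both genes tested, and in 3 of these both were called higher. H2BC7, H2AC7 and H2BC11, in 2 of these 3 pairs, were tested only because their NFIC shRNA samples reached the filter level. Over all genes tested, 29.6% were called higher. In H2BC4 with H2AC6 the log2FC values were 2.95 and 1.28, in H2BC7 with H2AC7 they were 2.52 and 3.5, and in H2BC11 with H2AC11 they were 2.80 and 2.08. In H2BC21 with H2AC20, whose starts are 235 bases apart, H2BC21 was 2.57 higher on the log2 scale while H2AC20 had -0.90, a call that was lost under the alternatives given above. In 3 pairs only the H2B gene was tested: H2BC12 rose beside 1 to 6 counts of H2AC12 in any sample, H2BC8 rose as did H2AC8 in the fit without a filter (log2FC 2.86, edgeR adjusted p = 0.000617), and H2BC15 did not pass the test beside 0 to 3 counts of H2AC15. Neither gene was tested in the last 3 pairs, of which H2BC13 had 1, 3 and 1 counts under scrambled shRNA and 0, 3 and 1 under NFIC shRNA beside the counts of H2AC13 given above.

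Genes that make and degrade histone mRNA moved little beside the members. Of 25 such genes, all tested, 14 were higher, 4 lower and 7 did not pass, with a median log2FC of 0.15, beside 29.6% higher and 30.3% lower over all genes tested and a median of -0.01. SYMPK, the scaffold of the cleavage complex, had 3425, 4404 and 3602 counts under scrambled shRNA and 4949, 5615 and 6159 under NFIC shRNA, a log2FC of 0.57 (edgeR adjusted p = 2.07e-07). POU2F1, which binds the octamer of H2B promoters, had a log2FC of 0.52 and SRRT, of the cap-binding complex, 0.37. The lower genes included E2F1, a factor of S-phase entry, at -0.33, CCNE1, a cyclin that activates CDK2, at -0.59, and LSM10, of the U7 particle that cuts histone pre-mRNA, at -0.28. NPAT, named here after its values were seen, had 422, 553 and 468 counts against 550, 571 and 838, a log2FC of 0.46 (edgeR adjusted p = 0.00752).

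Histone chaperones, which carry newly made histones to DNA, were mixed. Of 21, all tested, 14 were higher, 3 lower and 4 did not pass, with a median log2FC of 0.26, beside the same 29.6% higher and 30.3% lower over all genes tested. ASF1B, which hands on H3-H4, had 822, 1152 and 809 counts under scrambled shRNA and 1437, 1513 and 1757 under NFIC shRNA, a log2FC of 0.78 (edgeR adjusted p = 5.85e-07). CHAF1A, of the complex that deposits H3-H4 behind the fork, and DAXX, a chaperone of the H3.3 variant, had log2FC values of 0.54 and 0.38. NAP1L1, a chaperone of H2A-H2B, fell from 24473, 25783 and 24528 counts to 12463, 14874 and 12315, a log2FC of -0.90 (edgeR adjusted p = 2.99e-09), and IPO4, which imports H3-H4, and RBBP7 had -0.63 and -0.27.

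Most genes known to peak in S phase did not pass the test. Of 22 tested, 6 were higher, 1 lower and 15 did not pass, with a median log2FC of 0.15, beside 29.6% higher and 30.3% lower over all genes tested, so the share of higher genes was near the background. CDC6, which loads the replicative helicase, had 834, 1306 and 818 counts under scrambled shRNA and 1651, 1658 and 2303 under NFIC shRNA, a log2FC of 0.95 (edgeR adjusted p = 0.000826). SLBP and RRM2, a subunit of ribonucleotide reductase, had 0.24 and 0.45. SLBP and CCNE2, both called higher, also stood in the list of histone mRNA production, so the lists are not separate. PCNA, the sliding clamp of the fork, was the only lower gene, with 1904, 2857 and 1803 counts against 768, 875 and 954 and a log2FC of -1.31 (edgeR adjusted p = 1.04e-06). Scrambled replicate 2 had the highest summed level of this list with scrambled shRNA (1406 CPM, against 1091 in the lowest scrambled sample) and the lowest summed level of the histone members (61.4 CPM), and without it 13 S-phase genes were called higher. The part of the cell cycle in the histone results was not tested.

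The linker histone genes, which encode the protein that binds DNA where it enters and leaves the nucleosome, lie among the core genes of chromosome 6. Of H1-1 to H1-6, only H1-2 was tested. It had 43, 58 and 49 counts under scrambled shRNA and 184, 221 and 269 under NFIC shRNA, and every NFIC shRNA sample stood well above the scrambled samples (log2FC 2.18, edgeR adjusted p = 2.60e-09). H1-1, H1-3, H1-4, H1-5 and H1-6 had between 0 and 15 counts in a sample.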

How the data were processed

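THP-1 cells with scrambled shRNA or NFIC shRNA (3 samples each) were sequenced as bulk RNA. Per the study's methods the authors trimmed paired-end reads with Trim Galore, mapped them to GRCh38 with STAR and deposited the count that featureCounts gave for each gene and sample. The authors also deposited a normalized signal, in which counts are scaled by 1 factor per sample from DESeq2, and it was not used here. The deposited FPKM values, which the authors computed with the listed gene length, served for levels per length only. The log2 fold changes, standard errors, test statistics, p-values and adjusted p-values of the authors' own comparison, and their mean over samples, were not used. Tool versions, strand and the treatment of reads with several matches or marked as duplicates are not given in the sources used here.

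Counts were fitted with edgeR 4.0.16 in R 4.3.3, using TMM scaling, the package's low-count filter and robust quasi-likelihood tests over 19182 genes, with Benjamini-Hochberg adjustment and a threshold of 0.05. The standard error was taken as the size of the log2 fold change over the square root of F. Sums over members were given no test. An exact permutation test of 3 against 3 samples cannot give a p under 0.1. No source says whether replicates came from separate cultures, so p-values measure the spread between these samples, which may be technical. Annotation came from GENCODE 44, matched by identifier for 55 members and by symbol for 2. Molecular identifiers are not described, so reads need not be separate molecules and the detection limit covers counting error only.

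Alternatives were DESeq2 size factors, upper-quartile scaling and total counts in place of TMM, no filter and at least 10 counts in every sample, the DESeq2 1.42.0 Wald test, a replicate block, each sample left out, and sums without their most abundant member. Named genes were NFIC, every tested member, untested members with 10 or more counts in a sample, tested clustered linker histones, and of each list up to 3 genes a direction with the smallest adjusted p. The members, lists and tests were chosen with earlier results of these data known. The fits were tested on simulated counts with the same spread set for every gene. Changes were set only in genes with a scrambled mean above about 10 counts, so members with fewer reads were not covered.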

Additional observations from a re-analysis of the deposited data

How the results depend on the processing

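Of the 265 results for single members under another setting, 254 kept their direction and their side of the threshold. The log2 fold change of H2BC18 turned from 0.0231 to -0.0342 with upper-quartile scaling and ranged from -0.0343 to 0.103 as single samples were left out, past the threshold in none of these fits. The call of H2AC20 made the count of lower members, which was 0 with the DESeq2 test (0 at an unadjusted p under 0.05), 0 with the replicate block in edgeR (1 at an unadjusted p under 0.05), and 0 to 1 with a sample left out, while that of higher members was 17 to 19 with a sample left out. A minimum of 10 counts in every sample left 9 higher members, since it removes members with few reads. With upper-quartile scaling 8 genes of histone mRNA production and 9 chaperones were higher and 3 S-phase genes lower. Without a filter 10 S-phase genes were higher and 3 lower, and with the minimum of 10 counts 2 were lower. The cause was not tested. With a sample left out, 9 to 13 genes of histone mRNA production were higher and 2 to 5 lower, 9 to 15 chaperones were higher, and 5 to 13 S-phase genes were higher and 1 to 3 lower. Without the most abundant member the ratios were 2.74 for H2A, 3.10 for H3 and 4.21 for chromosome 1, the last largely through H2BC21.

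The deviations of samples with the same replicate number correlated at 0.0563, -0.0862 and -0.0446 over 19182 genes, so the numbers were not taken to pair the samples. With the replicate block 10983 genes were called in place of 11486, and 17 members were higher. Depth limits the 36 members below the filter, where a sample held at most 24 counts.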

Other observations

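Some histone genes outside the naming rule, chosen after their values were seen, had a range of fold changes. H2AJ, an H2A variant gene outside the clusters, had 294, 316 and 265 counts under scrambled shRNA and 411, 531 and 468 under NFIC shRNA, a log2FC of 0.70 (edgeR adjusted p = 2.94e-06). H4-16, which encodes the H4 protein from outside these clusters, had 13, 11 and 9 counts against 24, 25 and 23, a log2FC of 1.13 (edgeR adjusted p = 0.00513). In both genes the groups did not overlap. H1-10, a linker histone gene outside the clusters, had a log2FC of 0.01 (edgeR adjusted p = 0.912), and the pseudogenes H2BP2, H2BC19P and H2BC20P had 0.16, 0.28 and 0.20, none past the threshold.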
